A study of Mus musculus with 6 samples.

Results

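The Wnt ligands, their Frizzled receptors and co-receptors, and the secreted antagonists and feedback regulators around them were followed in whole mouse prostates with and without an AR3 transgene. Members were taken by a rule on gene symbols, which uses no values but was chosen with earlier results of these data known. It takes every gene whose symbol begins with Wnt, Fzd, Sfrp, Dkk or Rspo followed by a digit. Added to these are Wif1, Lrp5, Lrp6, Lgr4, Lgr5, Lgr6, Axin1, Axin2, Rnf43 and Znrf3. This gave 52 genes on 53 probe sets, of 19938 genes measured by a probe set that names a single gene. The symbol rule also takes in Fzd10os, a non-coding RNA from the strand opposite Fzd10; the other members encode proteins of the system.

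Prostates were dissected from mice 4 weeks old, 3 carrying the AR3 transgene and 3 wild-type littermates, and the total RNA of each mouse was hybridised to 1 Affymetrix array. AR3 is a splice form of the androgen receptor that lacks the ligand-binding domain and can act without androgen. The promoter that drives the transgene, the number of founder lines and the strain are given neither in the labels nor in the design text. The labels name every sample as a mouse of its own, so the p-values measure the spread between mice. The 6 arrays stand for whole tissue, in which fewer cells of a type and less RNA per cell cannot be told apart.

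Wnt proteins are lipid-modified secreted signals that bind a Frizzled receptor together with Lrp5 or Lrp6 on the receiving cell. The bound receptors inactivate the Axin and Apc complex that otherwise marks β-catenin for destruction, and β-catenin then switches on target genes with TCF and LEF factors. Secreted antagonists catch the ligand (Sfrp proteins, Wif1) or block the co-receptor (Dkk1), while R-spondins act through Lgr4, Lgr5 and Lgr6 to keep the ubiquitin ligases Rnf43 and Znrf3 from removing Frizzleds. In the prostate this signalling is known for its part in bud growth, in exchange between stroma and epithelium and in progenitor cells.

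Of the 52 genes, 0 differed between the genotypes at an adjusted p of 0.05 (limma on log2(intensity + 16), Benjamini-Hochberg adjustment over all 28944 probe sets), against 1.64% of all 19938 genes, 1.18% higher and 0.456% lower. The smallest adjusted p among the members was 0.249, for Axin2. At an unadjusted p under 0.05 there were 6 members. Levels in transgenic prostates were higher for 4 of them, Axin2, Fzd6, Fzd1 and Sfrp4 (6.91% of all genes), and lower for 2, Fzd5 and Wnt5b (5.27% of all genes). These 6 make 11.5% of the members, close to the 12.2% of all genes that met the same limit. The changes of the members lay between −0.31 (Dkk4) and 0.32 (Sfrp4) on the log2 scale, with a median of 0.07 against 0.01 for all genes, and 36 were positive, which is 69.2% of the members against 53.9% of all genes. In this fit the 95% interval of every one of the 52 changes lay within a factor of 2 in either direction, and that of 47 within a factor of 1.5. In the other settings tried, the interval of Dkk4, a gene with a mean at background, was the only one to pass a factor of 2.

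**Figure D1:**
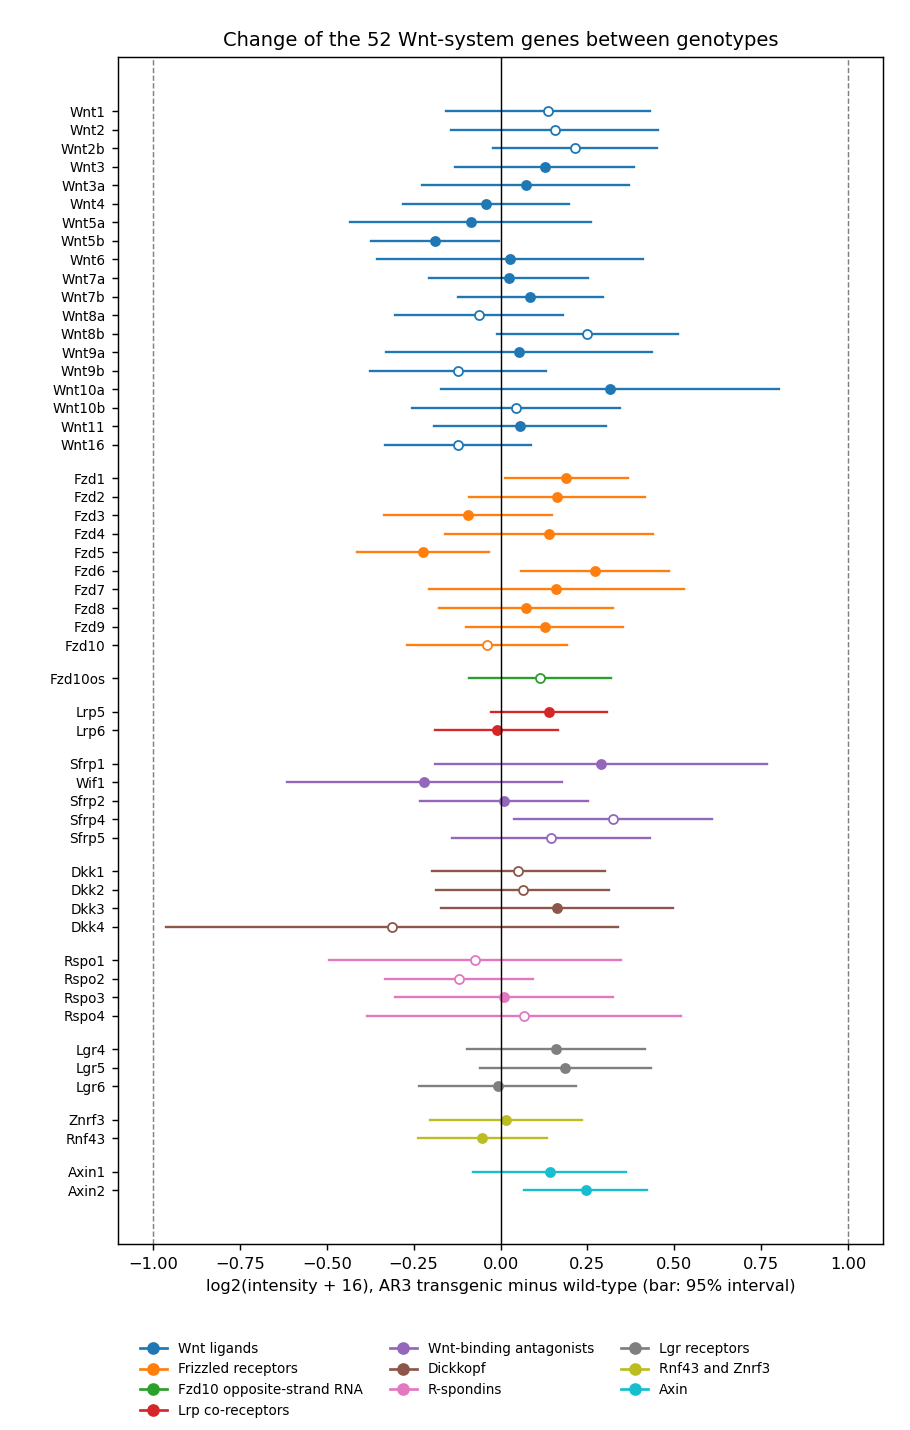
Change of each of the 52 genes between genotypes on the log2(intensity + 16) scale, AR3 transgenic minus wild-type, with its 95% interval from limma (3 mice per genotype). Filled points are genes with a mean intensity above 91.9 and open points lie at or under that background level. Every interval stays between the dashed lines at −1 and 1, and that of Dkk4 reaches farthest, to −0.96.

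The genotypes did not overlap in 8 of the 52 members, 15.4%, a separation that 19.1% of all genes showed. The transgenic mice were higher in 6 (Axin2, Fzd1, Fzd6, Lgr5, Lrp5 and Sfrp4), against 10.5% of all genes, and lower in 2 (Fzd5 and Wnt5b), against 8.61%. None of the 8 passed the adjusted threshold. Since no detection calls were used, background was read from 1035 probe sets for olfactory receptors, whose 95th percentile lay between 66.9 and 91.9 on the 6 arrays. By mean intensity 34 members lay above this range, 11 within it and 7 below it. Apart from this background scale and the sums over marker lists, intensities of different probe sets are not compared with each other.

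**Figure D2:**
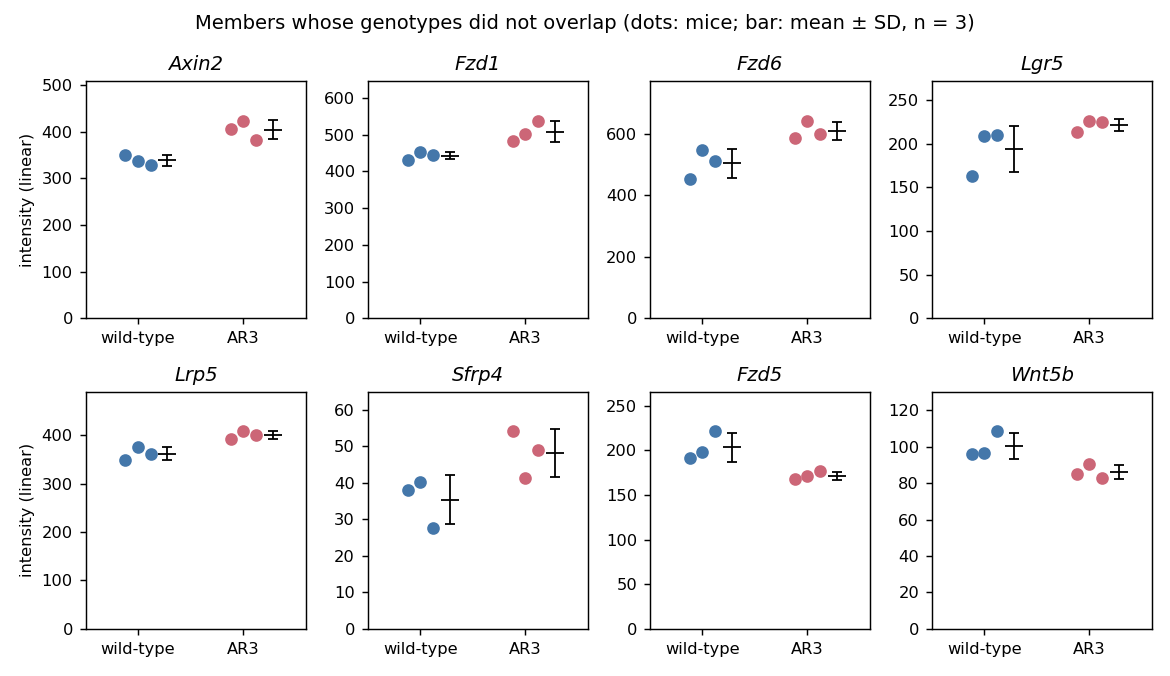
Linear intensity per mouse (dots), with mean ± SD (n = 3) per genotype, for the 8 members whose genotypes did not overlap. The gaps are narrow beside the levels: Axin2 ran from 328 to 351 in wild-type and from 383 to 424 in AR3 transgenic prostates, and Sfrp4 stayed under 55 in all 6 mice.

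Axin2, the scaffold of the destruction complex that β-catenin itself induces as negative feedback, had intensities of 351, 337 and 328 in wild-type mice 1, 2 and 3. In transgenic mice 1, 2 and 3 it had 407, 424 and 383. All 3 transgenic mice therefore lay above all 3 wild-type mice, and the means were 339 ± 11.4 and 405 ± 20.9 (SD, n = 3). The log2 difference was 0.25 ± 0.08 (SE), with an unadjusted p of 0.013 and an adjusted p of 0.249 in limma. Its constitutive relative Axin1 was at 205, 199.8 and 209.9 in wild-type and 221, 259 and 206 in transgenic prostates, overlapping groups with a difference of 0.14 and an adjusted p of 0.61.

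The ligands are the largest group, with 19 genes. Of these, 0 passed the threshold (1.64% of all genes). Differences were positive for 13 (68.4%, against 53.9% of all genes) and negative for 6, with a median of 0.05 (0.01 for all genes). Wnt5b, which signals largely outside the β-catenin branch, was the one ligand with an unadjusted p under 0.05 (0.0453, adjusted 0.392). It was at 96.3, 96.7 and 109 in wild-type and at 84.9, 90.3 and 83.1 in transgenic prostates, a log2 difference of −0.19 ± 0.08 (SE). The groups did not overlap, but the transgenic values lie within the background range.

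Promoters were searched for the letters of a TCF/LEF motif (CTTTGAT) or of an androgen receptor half-site (AGAACA) near the starts of genes. Those shown are of Axin2 and Wnt5b, the only members with an unadjusted p under 0.05 that had either motif in a window. Fzd1, Fzd5, Fzd6 and Sfrp4, which also had an unadjusted p under 0.05, had no match or no window. The 250 bases before the start come from RefSeq (GRCm38.p6), whose table held 36 windows for 32 of the 52 members, and both strands were searched; the motifs do not overlap each other in the windows shown. The half-site was in 5 of the 36 windows (13.9%, against 16.1% of all 32851 windows), those of Axin2, Dkk2, Rnf43, Wnt5b and Wnt8b. The TCF/LEF letters were in 2 windows (5.56%, against 3.21%), those of Wnt5b and Wnt11. Below, capitals mark the half-site in the window of Axin2 (chr11:108920099-108920348, plus strand) and the TCF/LEF letters in 1 of the 3 windows of Wnt5b (chr6:119449387-119449636, minus strand). A match of this kind is a description of letters and says nothing of binding, and neither gene was called.
Axin2: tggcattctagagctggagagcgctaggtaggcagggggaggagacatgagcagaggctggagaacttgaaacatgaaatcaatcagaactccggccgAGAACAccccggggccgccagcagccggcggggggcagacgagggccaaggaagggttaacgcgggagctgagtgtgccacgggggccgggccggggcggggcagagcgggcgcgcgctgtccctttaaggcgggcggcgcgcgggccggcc
Wnt5b: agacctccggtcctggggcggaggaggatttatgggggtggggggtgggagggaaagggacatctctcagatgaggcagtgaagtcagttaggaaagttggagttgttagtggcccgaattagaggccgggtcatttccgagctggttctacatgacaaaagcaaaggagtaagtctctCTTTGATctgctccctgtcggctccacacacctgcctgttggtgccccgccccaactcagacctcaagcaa

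Wnt5a, the close relative of Wnt5b and a stromal signal that restrains prostate bud growth, was at 136, 142 and 92.5 in wild-type and 119.6, 103 and 119.6 in transgenic prostates. The lowest and the highest value both came from wild-type mice, and the difference of −0.09 had a 95% interval of −0.43 to 0.26. Wnt4, known for its roles in kidney and reproductive tract development, was at 223, 272 and 273 in wild-type and 268, 245 and 230.4 in transgenic prostates. Its difference was −0.04 with an interval of −0.28 to 0.20, and a second Wnt4 probe set gave −0.0042 with an interval of −0.22 to 0.21. For both genes the genotypes overlap throughout.

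Among the other ligands, Wnt10a had the most positive difference, 0.32 with an interval of −0.17 to 0.80 and an adjusted p of 0.605. It was at 146, 195 and 254 in wild-type and at 193, 299.6 and 252 in transgenic prostates, so the genotypes overlap and the values spread widely within each. Wnt2b (0.21, unadjusted p 0.0687) and Wnt8b (0.25, unadjusted p 0.0581) came nearest to Wnt5b by p-value, and the mean intensity of Wnt8b, 52.9, lay below background. Together 11 ligands had means above the background range: Wnt3, Wnt3a, Wnt4, Wnt5a, Wnt5b, Wnt6, Wnt7a, Wnt7b, Wnt9a, Wnt10a and Wnt11. Wnt2, Wnt2b, Wnt8a, Wnt9b, Wnt10b and Wnt16 lay within the range, and Wnt1 and Wnt8b below it, so for these 8 genes the arrays bound the signal more than the transcript.

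The 10 Frizzled receptors included 3 of the 6 members with an unadjusted p under 0.05 (12.2% of all genes), and 0 passed the adjusted threshold (1.64% of all genes). Fzd6, which acts in planar cell polarity and hair patterning, was at 454, 547 and 512 in wild-type and at 586, 644 and 602 in transgenic prostates. Its log2 difference was 0.27 ± 0.09 (SE), with an adjusted p of 0.291 in limma, and ran from 0.20 to 0.33 without single arrays. Fzd1 was at 432, 452 and 444 in wild-type and at 482, 503 and 539 in transgenic prostates, a difference of 0.19 ± 0.08 (SE) and an adjusted p of 0.372. In both genes each transgenic mouse exceeded each wild-type mouse.

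Fzd5, a receptor of the intestinal epithelium and the eye field, went the other way, at 191, 198 and 221 in wild-type and 167, 171 and 176 in transgenic prostates. Here each transgenic mouse was below each wild-type mouse, with a log2 difference of −0.22 ± 0.08 (SE) and an adjusted p of 0.329. The 7 further receptors overlapped between genotypes. Their differences ran from −0.09 for Fzd3 through −0.04 for Fzd10, 0.07 for Fzd8, 0.13 for Fzd9 and 0.14 for Fzd4 to 0.16 for both Fzd2 and Fzd7. All Frizzleds but Fzd10 had means above the background range, and Fzd10os, the RNA opposite Fzd10, was at 59.8, 54.2 and 57.7 in wild-type and 70.1, 56.6 and 63.8 in transgenic prostates, with a mean of 60.4, below it. The difference of Fzd10os was 0.11, adjusted p 0.66, and the genotypes overlap.

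Lrp5, the co-receptor also known as a regulator of bone mass, was at 348, 376 and 361 in wild-type and at 393, 408 and 399.7 in transgenic prostates. The genotypes did not overlap, and the log2 difference was 0.14 ± 0.07 (SE), adjusted p 0.49. Lrp6, the other co-receptor, had a difference of −0.01 with a 95% interval of −0.19 to 0.17, among the narrower intervals of the set.

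Of the 5 antagonists that bind Wnt proteins directly, 0 passed the threshold (1.64% of all genes). Sfrp4, which like the other Sfrp proteins carries a Frizzled-like domain, was at 38.0, 40.3 and 27.7 in wild-type and at 54.1, 41.2 and 49.1 in transgenic prostates, a difference of 0.32 ± 0.12 (SE), adjusted p 0.346. The groups do not overlap, yet all 6 values lie below the background range, and so do those of Sfrp5 (difference 0.15). Sfrp2, a stromal antagonist, was at 332, 381 and 342 in wild-type and at 309, 374 and 382 in transgenic prostates, with a difference whose 95% interval ran from −0.23 to 0.25.

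Sfrp1, made by prostate stroma during development, was at 125, 129.9 and 76.4 in wild-type and at 110.3, 131 and 171 in transgenic prostates. Its lowest value came from wild-type mouse 3 and its highest from transgenic mouse 3, and the difference of 0.29 had an interval of −0.19 to 0.77 (adjusted p 0.629). Without wild-type mouse 3 it was 0.08, without transgenic mouse 3 it was 0.14, and without transgenic mouse 1 it was 0.42. Wif1, a secreted inhibitor with a Wnt-binding domain of its own, was at 536, 469 and 389 in wild-type and at 312, 406 and 479 in transgenic prostates. Both genotypes spread over much the same values, and the difference was −0.22 with an interval of −0.62 to 0.18 (adjusted p 0.668). It ran from −0.36 without transgenic mouse 3 and −0.34 without wild-type mouse 3 to −0.11 without wild-type mouse 1 and −0.06 without transgenic mouse 1.

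The fibroblast and mesenchyme markers are given on the same arrays. Their mean log2 level was 8.37, 7.90 and 7.75 in wild-type mice 1, 2 and 3 and 8.21, 8.29 and 8.73 in transgenic mice 1, 2 and 3. The lowest and the highest level fell on the same arrays as those of Sfrp1, but the arrays between them did not keep its order. Wild-type mouse 2 had a level of 7.90 with Sfrp1 at 129.9, and transgenic mouse 1 had 8.21 with Sfrp1 at 110.3. Sfrp2 was lowest in transgenic mouse 1, at 309. All 14 markers were measured and all 14 had positive differences, against 53.9% of all genes. Of these markers 5 had an unadjusted p under 0.05 (12.2% of all genes) and 0 passed the threshold (1.64% of all genes). Their summed intensity ran from 5163 to 7330 in wild-type and from 6781 to 9658 in transgenic prostates, and the lowest single value was 33.1, for Lum in wild-type mouse 3. The part of stromal content in the values of Sfrp1 and the other members was not tested.

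The 4 Dickkopf genes had 0 calls (1.64% of all genes). Dkk3, the divergent family member that is not an established Wnt inhibitor, was the one with a mean above background, at 123, 142 and 186 in wild-type and 151, 171 and 183 in transgenic prostates. The transgenic values lie inside the wild-type range, and the difference was 0.16 with an interval of −0.17 to 0.50. It was 0.04 without wild-type mouse 1, 0.11 without transgenic mouse 3 and 0.31 without wild-type mouse 3. Dkk4 had the most negative value of all members, −0.31 with an interval of −0.96 to 0.34, from intensities of 31.8, 79.98 and 87.7 in wild-type and 57.5, 40.04 and 44.3 in transgenic prostates. Wild-type mouse 1 lay far below the other 2 wild-type mice. With it the genotypes overlap (adjusted p 0.711), and without it the adjusted p was 0.0636, the smallest of any member in that fit. Dkk1 and Dkk2 differed by 0.05 and 0.06, both at intensities within the background range.

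The R-spondins and their receptors gave 0 calls among 7 genes (1.64% of all genes). Rspo2 had the smallest p of the 4 R-spondins, at 58.8, 62.4 and 48.7 in wild-type and 49.3, 52.6 and 50.2 in transgenic prostates, all below background (difference −0.12, adjusted p 0.663). Rspo3 was the one R-spondin with a mean above the background range, with a difference of 0.01 and an interval of −0.30 to 0.32. Lgr5, a stem cell marker and itself a target of the pathway, was at 163, 208 and 210.1 in wild-type and at 214, 227 and 224 in transgenic prostates. The groups did not overlap, but wild-type mouse 1 stood well below the other 5 mice, and the difference of 0.19 ± 0.11 (SE), adjusted p 0.537, was 0.08 without that mouse. Lgr4 (0.16) and Lgr6 (−0.01) overlapped between genotypes.

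The ubiquitin ligases that clear Frizzleds from the membrane, both also targets of the pathway, lay close to no difference. Rnf43 was at 225, 234 and 209.9 in wild-type and at 202, 223 and 218 in transgenic prostates, a difference of −0.05 with an interval of −0.24 to 0.13. Znrf3 had a difference of 0.02 with an interval of −0.20 to 0.24.

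Other genes of the pathway gave 0 calls as well (1.64% of all genes). Of 56 measured genes outside the members (ligand secretion, other receptors and inhibitors, the β-catenin complex, the transcription complex and planar polarity), 1 had an unadjusted p under 0.05, against 12.2% of all genes, and the median difference was 0.04, against 0.01. That gene was Vangl1, a core membrane protein of planar cell polarity, at 171, 179 and 185 in wild-type and 219, 228 and 234 in transgenic prostates. Its difference was 0.32 ± 0.07 (SE), with an adjusted p of 0.104, and it passed the threshold with array weights (0.0293) and when the dimmest probe sets were left out (0.0426). Next by p-value were the formin Daam2 (0.18, mean intensity below background), the Wnt co-receptor Ptk7 (0.30) and the membrane inhibitor Apcdd1 (0.28), with adjusted p of 0.415, 0.431 and 0.434.

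A list of 31 measured genes known to respond to β-catenin, which shares genes such as Apcdd1 with the pathway list, had 0 calls (1.64% of all genes) and a median of 0.08, with 3 at an unadjusted p under 0.05 (12.2% of all genes). Sp5, a transcription factor that Wnt signals induce in many tissues, was at 134, 168 and 196 in wild-type and at 114, 119 and 123 in transgenic prostates. Every transgenic mouse was below every wild-type mouse, opposite in direction to Axin2, with a difference of −0.42 ± 0.13 (SE) and an adjusted p of 0.227. Sp5 passed the threshold without wild-type mouse 1 (0.039) and with array weights (0.0301). The Hgf receptor Met (0.26, adjusted p 0.318), the receptor Tnfrsf19 (0.18, adjusted p 0.386) and the cyclin Ccnd1 (0.28, adjusted p 0.408) had higher means in transgenic prostates and did not pass. The target genes that are members, Axin2, Lgr5, Rnf43 and Znrf3, had differences of 0.25, 0.19, −0.05 and 0.02.

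**Figure D3:**
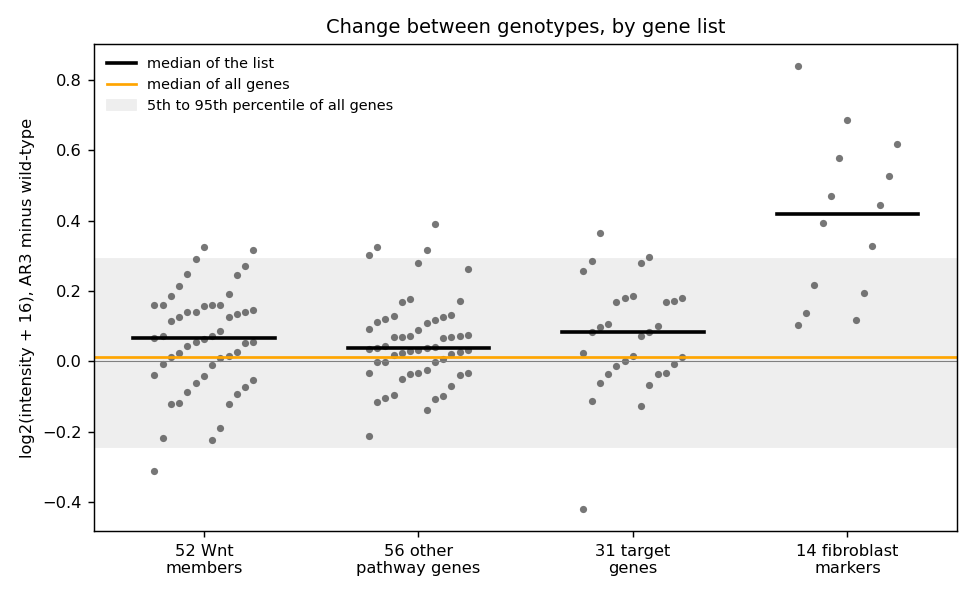
Change per gene (dots) on the log2(intensity + 16) scale, AR3 transgenic minus wild-type, for the members, the other pathway genes, the target genes and the fibroblast markers; black bars are list medians, the orange line the median of all genes and the grey band their 5th to 95th percentile, −0.24 to 0.29. Within the band, which by its definition holds most genes, lie 49 of 52 members, 52 of 56 other pathway genes and 28 of 31 target genes. The medians of these 3 lists are 0.07, 0.04 and 0.08, and that of the fibroblast markers is 0.42.

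The members varied between mice of 1 genotype. Wild-type mouse 1 held the lowest of the 6 values for 27 of the 52 members (51.9%), and for 12 of the 19 ligands, while it was lowest for 32.3% of all genes. Wnt3a, which signals through β-catenin, was at 109 in that mouse and between 140.1 and 157 in the other 5, and Wnt6 at 301 against 365 to 476. Transgenic mouse 2 held the highest value for 14 members (26.9%, against 15.8% of all genes). The median deviation of the members from their own means was −0.11 in wild-type mouse 1, where that of all genes was −0.05, and 0.08 in transgenic mouse 2, where that of all genes was 0.02. Without wild-type mouse 1 the members' median difference was 0.0049 in place of 0.07, and that of all genes −0.02 in place of 0.01. In that fit 26 of 52 members were positive (50%), against 45.4% of all genes.

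**Figure D4:**
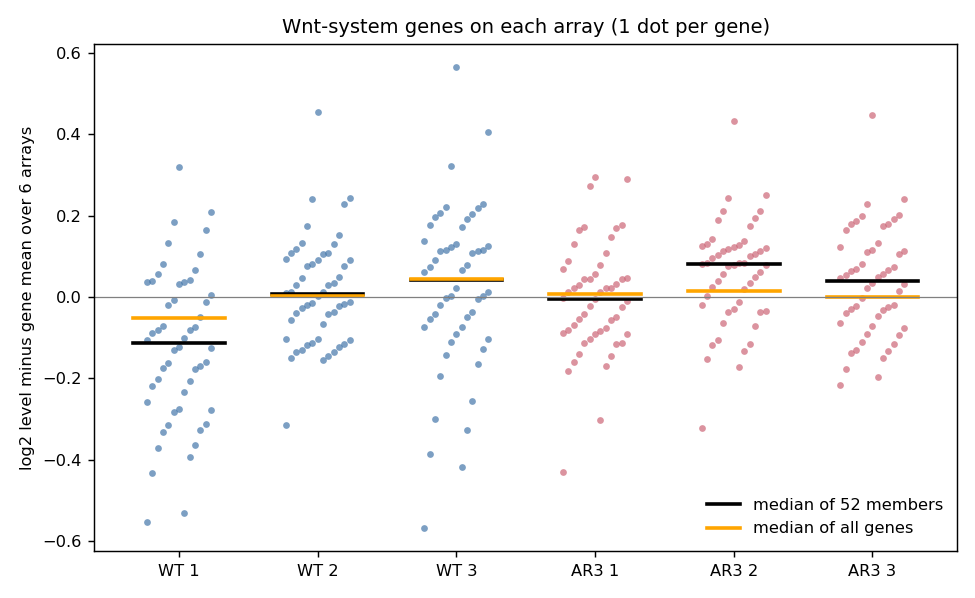
Level of each of the 52 genes on each array as its log2(intensity + 16) minus the gene's mean over the 6 arrays (dots; blue wild-type, red AR3 transgenic), with the median of the members in black and of all genes in orange. Both medians lie lowest in wild-type mouse 1, at −0.11 and −0.05.

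Across all 28944 probe sets 425 passed the threshold, 305 higher and 120 lower, and 314 and 264 after median centring. Median intensity per array lay between 94.5 and 110.8, lowest in wild-type mouse 1. The tissue label was checked against luminal prostate markers, of which all 12 measured lay above the background range, with Pbsn between 7927 and 9758 on the 6 arrays. Their summed intensity, in which the brightest genes weigh most, ran from 62791 to 65285 in wild-type and from 53032 to 55921 in transgenic prostates. The 12 markers did not move together: 5 had positive and 7 negative differences. In limma 2 were called lower, Sbp (−0.91, adjusted p 0.00167) and Spink3 (−0.53, adjusted p 0.0196), against 0.456% of all genes. At an unadjusted p under 0.05 there were 4 lower, these 2 with Msmb (−0.52) and Pbsn (−0.21), against 5.27% of all genes. The 2 higher at that limit were Cldn3 (0.29) and Epcam (0.19), against 6.91% of all genes. The seminal vesicle markers, from a gland that adjoins the prostate, had a mean log2 level of 7.98, 5.88 and 5.96 in wild-type mice 1, 2 and 3. In transgenic mice 1, 2 and 3 that level was 8.02, 7.17 and 8.94. Of these 9 genes 2 were called higher, Spinkl (4.08) and Ceacam10 (4.03), against 1.18% of all genes. Called lower was 1, Svs3a (−1.43), against 0.456% of all genes. Smooth muscle markers lay between 9.73 and 10.15 on all 6 arrays with 0 of 10 called (1.64% of all genes). The part of these tissues in the values of the members was not tested.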

How the data were processed

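Values were deposited as 1 number per probe set and array. The deposited values look like linear intensities, not logarithms; RNA was labelled with a whole-transcript kit for Affymetrix arrays, per the labels' protocols. How the authors summarised, background-corrected and normalized them is not given in the sources used here. No further normalization was applied in the main fit, although median intensity per array ran from 94.5 to 110.8. Quantile normalization and median centring were run as alternatives. Left out as controls, from knowledge of the platform, were 6568 probe sets with identifiers under 10344614.

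Symbols came from the platform annotation. For a gene with several probe sets the one with the highest mean over the 6 arrays was kept (among the members, Wnt4). Log2(intensity + 16) was fitted in limma 3.58.1 (R 4.3.3; lmFit, then eBayes) for 3 against 3 arrays without covariates. Tests were two-sided, and p-values were adjusted by Benjamini-Hochberg over 28944 probe sets. Adding 16 understates differences of dim genes. Every adjusted p is from limma. The fit was tested on simulated data.

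The members and gene lists were chosen with earlier results of these data known. Members named with all values are those with an unadjusted p under 0.05, the member with the smallest p of each role, and Axin2, Lgr5, Wnt5a, Wnt4, Sfrp1, Sfrp2, Wif1 and Dkk3; of the pathway and target lists, the 4 genes with the smallest p are named, those after the first of each list by difference and adjusted p. Axin1, Wnt10a, Wnt2b, Wnt8b, Wnt3a, Wnt6, Wnt9a, Dkk4, the marker genes named and the differences of further members were added after their values were seen. Every marker list is reported, in the results or the closing observations. The mouse numbers of the labels are not stated to pair the samples, and the fit treats the mice as unpaired. Same-numbered mice correlated at −0.04, 0.05 and −0.16 in their deviations from the genotype means, and differently numbered mice at −0.14 to 0.18. With 3 mice per genotype these correlations cannot decide whether mice were paired. The precision is limited by the number of arrays.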

Additional observations from a re-analysis of the deposited data

How the results depend on the processing

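The count of 0 called members held in limma under all 15 alternatives, among them median centring, quantile normalization, a filter that removes the dimmest 40% of probe sets (41 members left), added constants of 1 and 64, and leaving out each array in turn. The number with an unadjusted p under 0.05 ran from 1 (without transgenic replicate 2, where 8.2% of all genes met it) to 9 (array weights, 22.4% of all genes). The smallest adjusted p of any member in any setting was 0.0636, for Dkk4 without wild-type replicate 1. The 95% interval of Dkk4 passed a factor of 2 with the replicate block, with an added constant of 1 and without any 1 transgenic array, and that of no other member did. After median centring 31 of 52 members were positive (59.6%, against 42.5% of all genes). The other pathway genes had 1 call with that filter and 1 with array weights, and the target genes 1 with array weights and between 0 and 1 without single arrays. All probe sets called numbered 678 with an intensity trend and robust variances, 1202 with array weights, and between 234 and 519 without single arrays. With a replicate block by mouse number they came to 250, and 0 members were called; the block changed no call of a named gene. Of 371 values for 25 named genes, 11 changed sign, all in Sfrp2, Wnt4 and Wnt5a, whose differences lie near 0. The difference of Sfrp2 was −0.0088 with quantile normalization, −0.0284 with median centring and −0.0498 with array weights. Without single arrays it ran from −0.0442 to 0.1026, that of Wnt4 from −0.1311 to 0.0063 and that of Wnt5a from −0.2577 to 0.0137. The causes of these shifts were not tested. The 11 members within and 7 below the background range carry the least information, since their signal cannot be told from background. An added constant of 16 or 64 also shrinks their differences.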

Other observations

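Most genes of the array, members included, spread more among the wild-type than among the transgenic mice. The SD of log2(intensity + 16) was larger among the 3 wild-type mice for 68.3% of all genes, for 37 of 52 members (71.2%) and for 17 of 19 ligands (89.5%). The median SD of all genes was 0.13 in wild-type and 0.09 in transgenic prostates, and that of the ligands 0.17 and 0.10. Wnt9a is an example, at 141, 233 and 215 in wild-type mice 1, 2 and 3 and at 203, 192 and 206 in transgenic mice 1, 2 and 3.

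Among markers of other cell types, the nerve and glia list had 1 call among 6 measured genes, the neuronal ubiquitin hydrolase Uchl1 (1.74, adjusted p 1.12e-04 in limma), higher in transgenic prostates. The endothelial list had 1 call among 8, the cadherin Cdh5 (0.93, adjusted p 0.00964), also higher. The other nerve and glia markers ran from −0.18 (Snap25) to 0.26 (Sox10), and the median of that list was 0.10. The other endothelial markers ran from −0.04 (Tie1) to 0.32 (Tek), with a list median of 0.11. Of all genes 1.64% were called in either direction. Of the 10 macrophage markers 0 were called, although all 10 had positive differences (53.9% of all genes), with a median of 0.26 (0.01 for all genes). An unadjusted p under 0.05 was met by 3 of them (12.2% of all genes). None of the 11 basal epithelial, 10 skeletal muscle, 6 urothelial and 6 adipocyte markers was called in limma. An unadjusted p under 0.05, which 12.2% of all genes had, was met by 1, 3, 1 and 0 of them.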
